A study of Homo sapiens with 18 samples.

Results

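The genes that encode the proteins of the cytosolic ribosome were examined in sorted lymphoma cells from mice given tazemetostat or vehicle before CART19 cells. Members were the protein-coding genes, other than those on the Y chromosome, whose symbol has the form RPL, RPS or RPLP and a number, with the suffixes of the family (A, X or L and a further digit). This rule used names and not measured values, and it took 83 of the 58735 genes counted. It gave 52 genes of the large subunit and 31 of the small subunit. Of these, 76 were canonical genes, 3 of them (RPLP0, RPLP1 and RPLP2) coding for the stalk, and 7 were paralogs (RPL3L, RPL7L1, RPL10L, RPL22L1, RPL26L1, RPL39L and RPS27L). The name rule left out 4 genes of the same kind, RPSA, FAU and RPL36AL among them, and their values are given apart.

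The cells, tagged with green fluorescent protein (GFP), were of OCI-Ly18, a human line from a diffuse large B-cell lymphoma (DLBCL), and had been implanted under the skin of immunodeficient NSG mice. From day 3 after implantation, mice received either vehicle (M_766, M_769 and M_770) or tazemetostat (also called EPZ6438, which blocks the histone methyltransferase EZH2; mice M_767, M_768 and M_774) at 150 mg/kg daily by gavage, for 14 days. All 6 mice were then infused with CART19 cells, which are T cells engineered to carry a chimeric receptor, and GFP-positive cells were sorted from the dissociated tumours 11 days later. Each mouse has 3 libraries of total RNA, labelled A, B and C with no meaning given, whose counts were summed, so n = 3 mice per group. All tumours came from 1 cell line, no mouse without CART19 cells was analysed here, and the sources used here do not say if dosing went on past the infusion. The labels do not say whether the mice were handled in batches.

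A ribosome has a small subunit, which reads the messenger RNA, and a large subunit, which joins the amino acids. Cells make the protein of each position in matched amounts, and a protein left without a partner is degraded. Most of these messages begin with an uninterrupted run of pyrimidines, the 5′ terminal oligopyrimidine (TOP) element, through which the growth kinase mTOR and the RNA-binding protein LARP1 regulate their translation as a group. Free RPL5 and RPL11 bind MDM2, which links faults in ribosome assembly to p53.

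The start-site sequences are shown because a pyrimidine run at the start was common among canonical members and was found in 1 of the 5 paralogs with a window. RefSeq windows (GRCh38.p14) were matched for 66 of the 83 members. Members with no entry included RPL23, RPL23A, RPL30, RPL37, RPL39L, RPL3L, RPL5, RPL7, RPL8, RPS15A, RPS2 and RPS20. Each sequence runs from 30 bases before the annotated start to 20 bases from it, and capitals mark a pyrimidine run of at least 5 bases that opens with C at the start base.
RPS6, chr9:19380217-19380266, minus strand: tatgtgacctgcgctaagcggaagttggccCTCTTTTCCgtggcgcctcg
RPLP0, chr12:120201092-120201141, minus strand: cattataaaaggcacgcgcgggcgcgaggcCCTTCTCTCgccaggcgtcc
RPL13A, chr19:49487578-49487627, plus strand: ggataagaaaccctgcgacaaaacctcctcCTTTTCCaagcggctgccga
RPS10, chr6:34426050-34426099, minus strand: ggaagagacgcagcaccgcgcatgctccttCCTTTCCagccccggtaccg
RPS27, chr1:153990732-153990781, plus strand: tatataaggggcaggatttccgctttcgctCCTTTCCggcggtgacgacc
RPS27L, chr15:63157458-63157507, minus strand: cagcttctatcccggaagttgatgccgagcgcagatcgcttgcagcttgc
RPL22, chr1:6199576-6199625, minus strand: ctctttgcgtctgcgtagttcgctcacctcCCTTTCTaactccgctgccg
RPL22L1, chr3:170870176-170870225, minus strand: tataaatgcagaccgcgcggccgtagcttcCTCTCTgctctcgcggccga
RPL7L1, chr6:42879586-42879635, plus strand: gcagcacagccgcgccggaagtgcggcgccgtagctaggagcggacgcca

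Such a run at the start base was found in 45 of the 61 canonical members with a window (73.8%), in 73.7% of those of the large subunit and in 73.9% of those of the small subunit. Among the paralogs it was found in 1 of 5, RPL22L1, whose parent RPL22 carries it too. RPS27L lacks the letters that RPS27 carries at this position. RPL7L1 also lacks such a run, but its parent RPL7 has no window to set beside it. The share was 5.14% over all 27305 genes with a window and 7.27% over the protein-coding genes tested. In lists of related genes it was 11 of 12 translation factors, 6 of 69 mitochondrial ribosomal protein genes (8.7%) and 1 of 24 ribosome biogenesis genes. The letters CCGGAAG, the core of many ETS-family sites, were searched on both strands over the 250 bases before the start and stood in 34.9% of members, 36.2% of mitochondrial ribosomal protein genes, 37.5% of ribosome biogenesis genes, 18.1% of the protein-coding genes tested and 10.2% of all genes. TATAAA or TATATA, which share the letters TATA, were searched on the gene's strand only, from 40 to 16 bases before the start, and stood in 13.6% of members and 3.92% of all genes. A match describes these letters in these windows and is not evidence of binding.

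The labelled cell type was checked against its markers. All 8 B-cell markers had at least 3269 counts in every mouse, CD3D and CD3G had none in any of the 6 mice, and CD3E had 1 to 9. The summed level of the 14 T-cell markers, held mostly by TRBC2, CD247, TRAC and LCK, was 166 to 196 CPM (counts per library scaled to equal size) in vehicle mice and 165 to 197 in tazemetostat mice. Within it, CD247 lay above 0 (log2 fold change 0.43, adjusted p = 0.47 by edgeR) and LCK below (-0.39, adjusted p = 0.61), each with groups that did not overlap. Libraries held 16124494 to 26336269 counts, and all 18 pairs of libraries within a mouse differed beyond sampling noise. Library M_768_C stood furthest apart: chi-square per degree of freedom against the other libraries of its mouse reached 67.3, while no pair without it exceeded 4.81. The counts of members and of listed genes were therefore repeated without that library.

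The share of counts taken by ribosomal protein genes varied between mice, and the groups overlapped. In vehicle mice they held 13.09% of all counts in M_766, 10.29% in M_769 and 9.09% in M_770 (10.8% ± 2.05, SD, n = 3). In tazemetostat mice they held 8.94% in M_767, 11.19% in M_768 and 10.52% in M_774 (10.2% ± 1.16, SD, n = 3). The highest and the next-to-lowest mouse were both in the vehicle group. The ratio of large-subunit to small-subunit counts was 1.53 ± 0.042 in vehicle mice and 1.52 ± 0.027 in tazemetostat mice (SD, n = 3 each), so both subunits took up the differences between mice in nearly the same proportion. In bulk RNA such a share cannot tell fewer cells of a type from less RNA per cell.

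**Figure D1:**
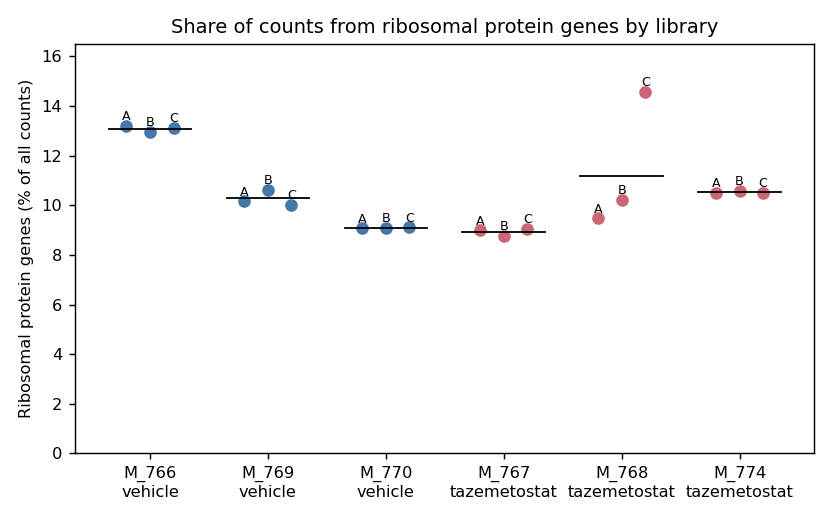
Share of all counts that came from the 83 ribosomal protein genes (vertical axis, percent) in each of the 18 libraries, grouped by mouse; letters name the libraries, horizontal lines give the share in the summed counts of a mouse, and colour separates vehicle from tazemetostat. The libraries of M_766 lie together near 13%, and M_768_C, at 14.58%, lies far above M_768_A and M_768_B.

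Libraries of a mouse lay close together with 1 exception. The 3 libraries of M_766 held 12.96% to 13.20%, whereas M_768_C held 14.58% beside 9.47% in M_768_A and 10.23% in M_768_B. The summed T-cell markers of M_768_C were also high, at 236.7 CPM beside 180.0 and 181.7 in M_768_A and M_768_B and 156.9 to 199.4 over the 17 other libraries, and their part was not tested. Without M_768_C the share of M_768 was 9.80%, between that of M_767 and M_774.

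None of the ribosomal protein genes was called as changed by tazemetostat. Of the 83 members, 81 passed the filter on low counts, and 0 had an adjusted p under 0.05 (edgeR's quasi-likelihood test, Benjamini-Hochberg over 20301 genes), where 0.0345% of all genes tested were called (0.0197% higher and 0.0148% lower). At an unadjusted p under 0.05, 0 members were found, where the share over all genes was 6.55% (3.34% higher and 3.21% lower). DESeq2 also called 0. The groups of mice overlapped for all 81, although 12.6% of all genes tested had groups that did not overlap (6.58% higher and 6% lower in tazemetostat mice). The estimate was below 0 for 72 members and above 0 for 9, with a median log2 fold change of -0.08, beside -0.01 over all genes tested. The median was -0.09 for 50 large-subunit genes and -0.08 for 31 small-subunit genes.

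That direction rested on which mice were in the comparison. Without vehicle mouse M_766, 79 of 82 members lay above 0 with a median of 0.10, 2 of them had an unadjusted p under 0.05 and 3 had groups that did not overlap. Without tazemetostat mouse M_767, 59 of 81 lay above 0 with a median of 0.02. Without library M_768_C, 5 lay above 0 with a median of -0.16, and without both M_766 and M_768_C, 51 of 81 did, with a median of 0.01 and 2 members whose groups did not overlap. With a mouse left out, groups separate more easily, and the shares over all genes tested were not computed for these comparisons. Their counts of members past the unadjusted threshold or with separate groups therefore cannot be read as a gain. The adjusted test called 0 members in each of the 20 alternatives. The sign of the main estimate was kept throughout by 3 members of 81: RPS23 and RPL30 below 0, and RPS27L above 0. Their estimates came as near to 0 as -0.0001 for RPS23, -0.03 for RPL30 and 0.04 for RPS27L.

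**Figure D2:**
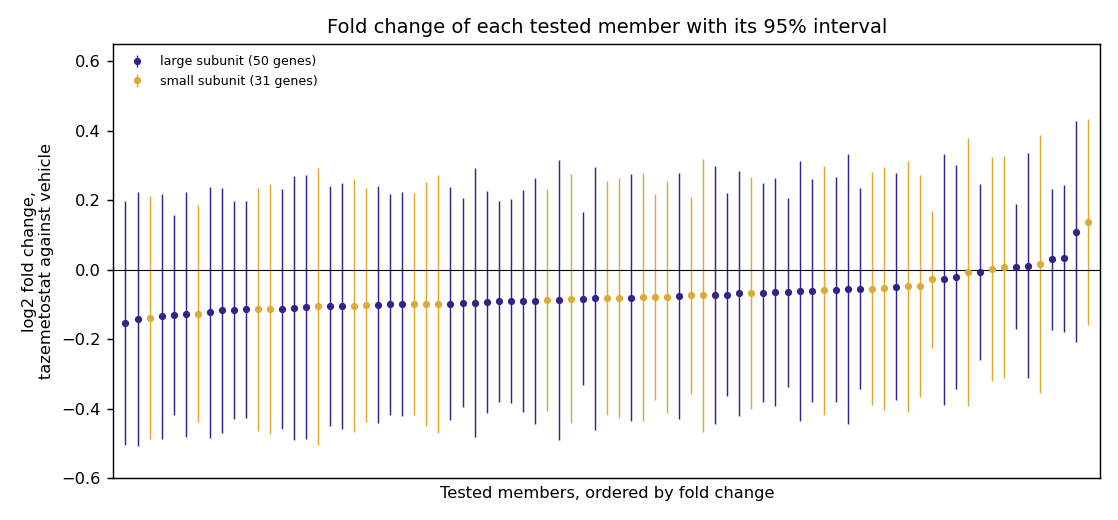
Log2 fold change of tazemetostat against vehicle for the 81 tested members, ordered by size; points are edgeR estimates from 3 mice per group, bars are 95% intervals, and colour gives the subunit. All intervals span 0, both subunits are mixed along the order, and the highest estimate, at the right, is that of RPS27L.

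The intervals of the main comparison rest on edgeR's variance estimates, which draw on all genes tested and not on each member alone. There, the 95% interval of each of the 81 members lay within a 1.5-fold change in either direction. The lowest bound was -0.51 and the highest 0.43 on the log2 scale. Intervals from each member's own spread were not computed and could be wider. The SD between mice of a group was 0.32 for RPL34 and 0.29 for RPS6 on the log2 scale. Members also varied together between mice, so the 81 intervals are not separate bounds. A 1.5-fold change is therefore not excluded for every member. Estimates moved when mice or library M_768_C were left out, and the intervals of those fits were not examined.

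RPS6, the small-subunit protein that S6 kinases phosphorylate, had the highest level per kilobase of principal transcript, 6448 CPM per kb, and supplied 8.49% of all member counts. It had 11740, 9016 and 7047 CPM in vehicle mice M_766, M_769 and M_770, and 7404, 9336 and 9111 CPM in tazemetostat mice M_767, M_768 and M_774. The highest and the lowest value were both in vehicle mice. Its log2 fold change was -0.11 (SE 0.18, 95% interval -0.50 to 0.29, adjusted p = 0.96 by edgeR). Among canonical genes without a large same-strand overlap, the level per kilobase ran from 68.9 to 6448 with a median of 1128. RPL13A (3523), RPL19 (3507), RPS2 (3245) and RPS18 (3054) came next after RPS6. This scale depends on the transcript chosen for the length. With the deposited length over all exons, RPS6 was again first.

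RPL13A, a large-subunit protein also known for translational silencing after interferon-gamma, had the lowest estimate. Its levels were 5360, 4073 and 3709 CPM in vehicle mice and 3361, 4494 and 3967 CPM in tazemetostat mice, with mice in the order just given. M_766 was highest and M_767 lowest. The log2 fold change was -0.15 (SE 0.16, 95% interval -0.50 to 0.20, adjusted p = 0.92 by edgeR). The large-subunit genes RPL10, RPL13, RPL36, RPL30 and RPL11 and the small-subunit genes RPS15 and RPS23 were also among the 10 smallest p-values and had estimates from -0.14 to -0.11, none past the test.

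The genes of the stalk proteins, which recruit the elongation factors to the large subunit, varied in step, as most members did. RPLP0, their anchor, had 4915, 3642 and 3456 CPM in vehicle mice and 3432, 3922 and 3911 CPM in tazemetostat mice. RPLP1 had 3002, 2164 and 1908 CPM against 1861, 2507 and 2202 CPM. RPLP2 had 1258, 1029 and 967 CPM against 841, 1192 and 1026 CPM. M_766 was the highest and M_767 the lowest mouse for each of the 3, the groups overlapped, and the log2 fold changes were -0.09, -0.11 and -0.09.

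Genes whose loss of 1 copy causes Diamond-Blackfan anaemia, a failure of red cell formation, varied as most members did. RPS19, needed to mature the small-subunit RNA, had 2291, 1678 and 1489 CPM in vehicle mice and 1441, 1951 and 1709 CPM in tazemetostat mice. RPL5 had 2050, 1607 and 1416 CPM against 1380, 1687 and 1672 CPM, and RPL11, its partner in binding MDM2, had 1595, 1142 and 1053 CPM against 998, 1220 and 1249 CPM. RPS26 had 1165, 854 and 806 CPM against 788, 1023 and 911 CPM. Each of the 4 was highest in M_766 and lowest in M_767, and their log2 fold changes ran from -0.13 for RPL11 to -0.05 for RPS26, with adjusted p of 0.94 to 0.98 by edgeR.

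The members differed between mice far more as a group than 1 from another. M_766 was the highest mouse for 74 of the 81 tested members and M_767 the lowest for 65, or 77 and 66 without library M_768_C. Among the 71 canonical members whose principal transcript shared under 30% of its bases with another gene on the same strand, the level in M_766 exceeded that in M_767 by 1.32-fold (RPL14) to 1.69-fold (RPL34), with a median of 1.54-fold. One common axis held 93.6% of the variance between mice of all 81 tested members, and 95.2% of that of these 71 genes, a set that leaves out the most discordant canonical members by construction. The median standard deviation (SD) between mice of a group was 0.24 on the log2 scale, while the libraries of a mouse differed by 0.06 without M_768_C and by 0.19 with it.

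**Figure D3:**
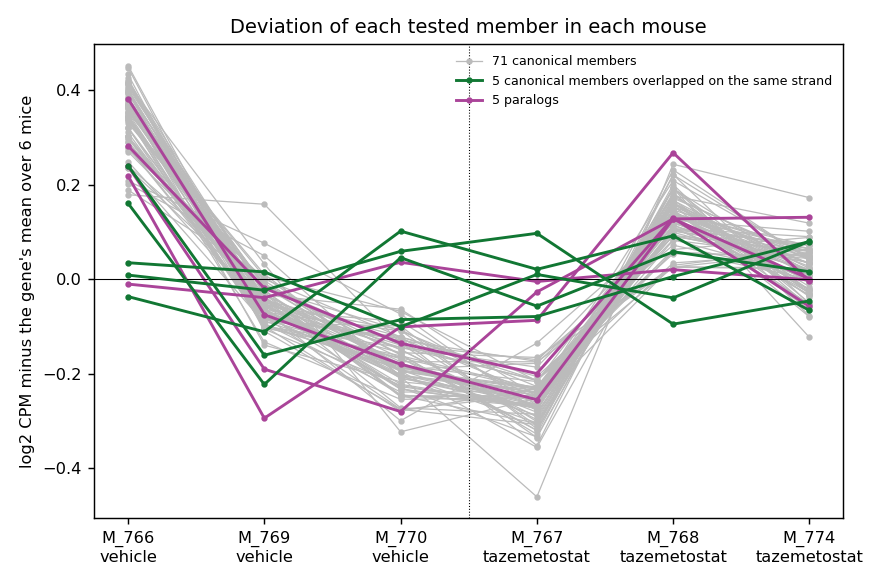
Deviation of each tested member from its own mean over 6 mice (vertical axis, log2 CPM) in each mouse; lines join the values of 1 gene, grey for 71 canonical members, green for 5 canonical members that share at least 30% of their transcript with another gene on the same strand, and purple for 5 paralogs. The grey lines form a narrow band that is high in M_766 and low in M_767, and the green lines run near 0.

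The 5 canonical members outside that band included RPS10, RPL36A, RPL17 and RPL26, and the 30% split was chosen after their values were seen. RPS10 shared 87.96% of its principal transcript with the read-through gene RPS10-NUDT3, RPL36A 77.62% with RPL36A-HNRNPH2, RPL17 68.57% with RPL17-C18orf32 and RPL26 38.74% with AC135178.2. The overlapping genes themselves held 0 to 80 counts over all mice, and just below the split RPL36 shared 28.03% and had a ratio of M_766 to M_767 of 1.61, and RPL18 shared 26.39% with a ratio of 1.53. In the 5, that ratio was 0.94 to 1.25 with a median of 1.02.

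Their levels were low as well. RPS10 had 6.77, 5.18 and 6.25 CPM in vehicle mice and 5.82, 6.30 and 6.12 CPM in tazemetostat mice, or 7.77 CPM per kb. RPL36A had 20.5, 20.3 and 18.7 CPM against 20.2, 19.5 and 21.2 CPM, or 46.8 CPM per kb. RPL17 stood at 82.3 and RPL26 at 65.5 CPM per kb, against a median of 1128 in the other canonical genes. Among those other genes RPS15A, at 68.9 CPM per kb, was as low. How the authors' counting treated reads that fall in more than 1 gene is not given in the sources used here, so the levels of these 5 genes are uncertain and their part in the difference was not tested.

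Pseudogene copies are a further source of uncertainty, since 1075 pseudogenes in the table are named after 76 of the members. For 8 members, more than 10% of the joint counts were assigned to pseudogenes. RPS28 was the extreme among well-expressed members: 56.7% of the joint counts lay in pseudogenes, and 202454 counts were assigned to RPS28P7 (hg38, chr11:82689559-82689768). The share was 57.0% for RPS10, 31.6% for RPL9 and 25.7% for RPL26. Adding pseudogene counts to their parent left the median log2 fold change at -0.08 and 0 members called.

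The common shift also moved with transcript length in genes outside the ribosome. Against the mean of M_769 and M_770, mouse M_766 was higher by a median log2 difference of 0.48 in the 71 canonical members. Among other protein-coding genes of at least 50 CPM, the difference was 0.31 for 141 genes with principal transcripts under 1000 bases, 0.17 for 695 genes of 1000 to 2000 bases, 0.00 for 1575 genes of 2000 to 4000 bases and -0.24 for 1679 longer genes. Library M_768_C, against libraries A and B of its mouse, was higher by 0.77 in the canonical members and by 0.74, 0.45 and 0.09 in the same first 3 length classes, and differed by -0.30 in the longest. In both samples the short messages were high and the long ones low, and the part of transcript length in the ribosomal protein levels was not tested. Genes induced when tissue is dissociated stood the other way in M_766: 19 tested genes of that kind had a median deviation of -0.94 there, and their summed level over the list was 2233 CPM in M_766, 2983 and 3114 CPM in the other vehicle mice and 3266 to 3965 CPM in tazemetostat mice. Their part was not tested either.

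**Figure D4:**
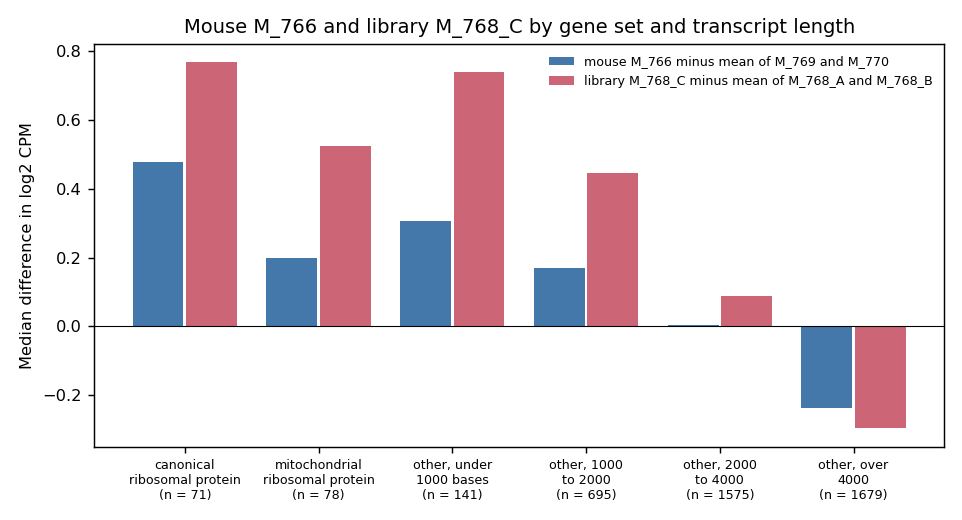
Median difference in log2 CPM (vertical axis) between M_766 and the mean of M_769 and M_770 (blue), and between library M_768_C and the mean of M_768_A and M_768_B (red), for canonical ribosomal protein genes with under 30% same-strand overlap, mitochondrial ribosomal protein genes, and other protein-coding genes of at least 50 CPM by length of the principal transcript in bases; n is the number of genes. Both differences fall from the shortest class to the longest and are positive in both ribosomal protein sets.

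The shift was present in members with and without the pyrimidine run. The median ratio of M_766 to M_767 was 1.55 in the 42 canonical members with the run and under 30% same-strand overlap, and 1.51 in the 15 such members whose windows lack it. The translation factors, 11 of 12 of which carry the run, are listed for comparison: 18 tested factors deviated by a median of 0.07 in M_766, where the 81 ribosomal protein genes deviated by 0.35. Within that list EEF2, the factor that moves the ribosome along the message, had 6077, 6052 and 5784 CPM in vehicle mice and 5294, 5369 and 5754 CPM in tazemetostat mice. TPT1, named after its values were seen, had 2305, 1624 and 1599 CPM against 1714, 2050 and 2005 CPM, with the highest mouse again M_766. The 4 ribosomal protein genes that the name rule left out followed the members, with a median deviation of 0.32 in M_766 and log2 fold changes of -0.15 for FAU, -0.11 for RPSA and -0.08 for RPL36AL.

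The paralogs were tested apart, because a cell can in principle exchange them for their parent proteins. RPL10L, known from the testis, had no count in any mouse, and RPL3L, known from heart and skeletal muscle, had 3 to 13 counts per mouse, so neither passed the filter. The other 5 were tested, together with RPL36AL as the partner of RPL36A, which gave 6 pairs. The exact two-sided permutation test of 3 against 3 mice cannot give a p below 0.1, and no pair can pass 0.05.

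RPS27L, a small-subunit paralog known as a target of p53, had the smallest p of all members (0.33). It had 36.6, 27.2 and 25.5 CPM in vehicle mice and 30.4, 33.9 and 33.9 CPM in tazemetostat mice. The vehicle mice include both the highest and the lowest value. The log2 fold change was 0.14 (SE 0.13, 95% interval -0.16 to 0.43, adjusted p = 0.92 by edgeR).

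Relative to its parent, RPS27L was higher in all 3 tazemetostat mice. It held 4.01%, 3.80% and 4.09% of the counts of the pair in vehicle mice and 5.38%, 4.24% and 4.62% in tazemetostat mice. The log2 ratio of RPS27L to RPS27 was -4.60 ± 0.057 in vehicle mice and -4.33 ± 0.18 in tazemetostat mice (SD, n = 3 each). The groups did not overlap and differed by 0.26 (exact permutation p = 0.1, the smallest possible; 0.6 after adjustment over 6 pairs). M_767 had the highest ratio and also the lowest RPS27, at 535 CPM against 599 to 876 in the other mice. Without M_767 the difference was 0.17. The principal transcript of RPS27L has 6434 bases and that of RPS27 has 359, and the part of transcript length in this ratio was not tested.

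RPL22L1, whose parent RPL22 represses it in other systems, was the most balanced member pair by counts. It held 36.9%, 35.7% and 37.8% of the pair in vehicle mice and 34.0%, 36.0% and 34.9% in tazemetostat mice, a difference in log2 ratio of -0.11 (exact permutation p = 0.2; 0.6 adjusted over 6 pairs). The groups overlapped. Per kilobase of principal transcript RPL22 exceeded RPL22L1 by 1.88-fold, but with the deposited length over all exons the ratio was 0.89, so which of them was higher depended on the length used.

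RPL7L1, a nucleolar relative of RPL7 that acts in ribosome assembly, did not follow the canonical band. It had 233, 229 and 241 CPM in vehicle mice and 234, 238 and 235 CPM in tazemetostat mice. Its SD over the 6 mice was 0.03 on the log2 scale, and its log2 fold change was 0.01 (SE 0.08, 95% interval -0.17 to 0.19, adjusted p = 0.99 by edgeR), with a sign that turned under upper-quartile scaling. RPL7 itself had 1888, 1415 and 1223 CPM against 1223, 1548 and 1512 CPM. The share of RPL7L1 in the pair therefore moved opposite to RPL7, from 11.0% in M_766 to 16.4% in M_770. The principal transcript of RPL7L1 has 4476 bases and that of RPL7 has 1101.

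In the remaining pairs the groups overlapped. RPL26L1 held 27.8% to 33.6% of its pair, RPL39L 4.23% to 4.95% and RPL36AL 81.9% to 87.0%, with differences in log2 ratio of 0.11, -0.04 and -0.11 and exact permutation p of 0.4, 0.8 and 0.7. The parents RPL26 and RPL36A are among the 5 genes with a large same-strand overlap, which leaves those shares uncertain.

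**Figure D5:**
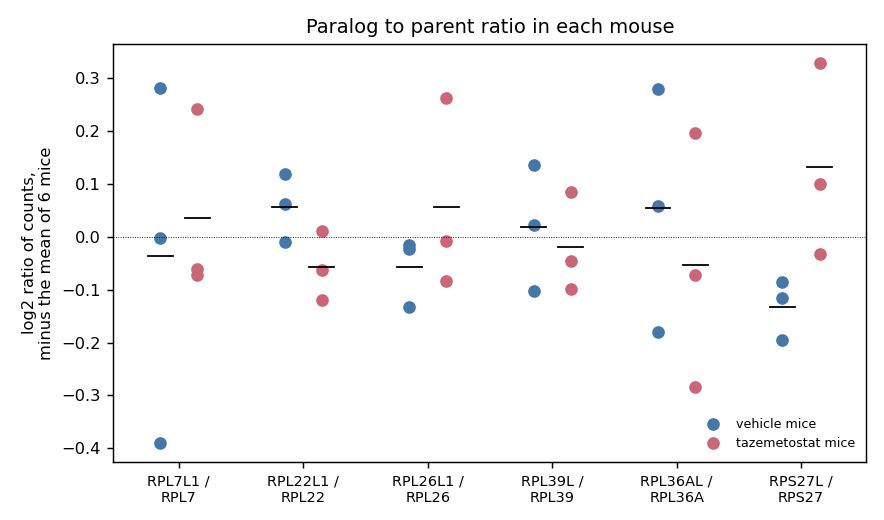
Log2 ratio of paralog to parent counts in each mouse, minus the mean of that pair over 6 mice (vertical axis), for the 6 tested pairs; points are mice, blue for vehicle and red for tazemetostat, and short lines are group means. The groups are separate for RPS27L and RPS27 and overlap in the other 5 pairs.

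Other genes of the pathway were read from lists, and none of the genes in them had an adjusted p under 0.05 by edgeR. Of 30 ribosome biogenesis genes, 0 had an unadjusted p under 0.05, where 6.55% of all genes tested did. Of the 30, 18 lay above 0, and the median log2 fold change was 0.03. Without library M_768_C, 17 lay above 0, and 1 gene below 0 had an unadjusted p under 0.05. In that fit 815 of 20091 genes tested had such a p below 0. UBTF, which opens ribosomal DNA to RNA polymerase I, had 427, 437 and 480 CPM in vehicle mice and 407, 369 and 392 CPM in tazemetostat mice. Those groups did not overlap, and the log2 fold change was -0.20 (SE 0.09, 95% interval -0.41 to 0.00, adjusted p = 0.76 by edgeR).

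Of 78 mitochondrial ribosomal protein genes, 39 lay above 0 and 39 below, with a median of 0.00 and 1 at an unadjusted p under 0.05 (MRPL44, 0.22). Over all genes tested, 3.34% had such a p in this direction. Without library M_768_C, 26 lay above 0 and 52 below with a median of -0.05, and 4 below 0 had an unadjusted p under 0.05. In that fit 815 of 20091 genes tested had such a p below 0. In M_766 the median deviation of the mitochondrial ribosomal protein genes was 0.13, between that of the cytosolic genes and 0. Of 16 genes of mTOR signalling and translation control, 7 lay above 0 with a median of -0.01 (8 and 0.00 without library M_768_C). MAF1, a repressor of RNA polymerase III, had a log2 fold change of -0.22 (unadjusted p = 0.044, adjusted p = 0.74 by edgeR). Of 18 translation factors tested, 8 lay above 0 with a median of -0.03 (6 and -0.05 without library M_768_C). Of 10 small nucleolar RNA host genes, 7 lay above 0 with a median of 0.03, but 3 did with a median of -0.03 without library M_768_C.

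Most p53 targets on the list lay above 0. Of 16, 11 lay above 0 with a median of 0.11, 5 had an unadjusted p under 0.05 (3.34% of all genes tested did so in this direction), and 6 had non-overlapping groups, where 6.58% of all genes tested did so in this direction. Without library M_768_C these counts were 12, 5 and 5. In that fit 833 of 20091 genes tested had an unadjusted p under 0.05 in this direction, and 1605 had non-overlapping groups in this direction. CDKN1A, the cell-cycle inhibitor p21, had 53.1, 50.1 and 31.0 CPM in vehicle mice and 70.6, 69.5 and 80.8 CPM in tazemetostat mice. Its log2 fold change was 0.72 (SE 0.17, 95% interval 0.33 to 1.10, adjusted p = 0.37 by edgeR), and DESeq2 gave an adjusted p of 0.0083. This list was chosen with earlier results of these data known. The genes induced by dissociation also lay mostly above 0, 17 of 19 with a median of 0.78, 11 at an unadjusted p under 0.05 and 9 with non-overlapping groups, and their part in the p53 values was not tested.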

How the data were processed

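Messenger RNA of sorted OCI-Ly18 cells was counted in 18 libraries from 6 mice. Per the file headers, the authors deposited unnormalized counts of reads for each gene. The submitters' processing notes name hg38 and DESeq2, while the sources used here name no aligner, counter, strand setting or rule for multi-mapping reads. The 58735 gene IDs all matched GENCODE release 29 in position, which supplied principal transcripts and overlaps.

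Libraries of a mouse were summed to 3 mice per group and compared by edgeR 4.0.16 (R 4.3.3), using TMM scaling, filterByExpr at 10 counts and the quasi-likelihood test, with Benjamini-Hochberg adjustment over 20301 genes and a threshold of 0.05. Levels of single genes are CPM after TMM scaling, and summed levels of marker and dissociation lists are counts scaled to all counts. Whether mice came from separate experiments is not stated. Paralog ratios were compared with exact permutation tests. Library letters did not pair samples: deviations correlated at -0.0016 for equal and 0.0008 for different letters. Alternatives covered scaling, filters, DESeq2 1.42.0, limma 3.58.1, a mouse random effect, pseudogene counts and samples left out, of which leaving out M_766 with M_768_C together was chosen after seeing the data. The steps were tested on simulated data. Genes named were every paralog pair, the 10 smallest p-values, the extremes of level and of variation, Diamond-Blackfan and stalk genes, RPS6, RPL13A and up to 3 smallest p-values per related list; of these, those that add a value are described, and some are not reported here. Members and lists were chosen with earlier results of these data known. RefSeq promoter sequences were used for start sites.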

Additional observations from a re-analysis of the deposited data

Results flagged for a closer look

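Library M_768_C lay far from the other 8 tazemetostat libraries in 5 measures of the ribosomal protein genes. Its share of counts was 14.58% in all, 8.615% for the large subunit and 5.963% for the small subunit. The ratio of large to small subunit was 1.445, the lowest of the 18 libraries, and pseudogenes of the members held 0.4681% of its counts. About 1 in 20 groups is singled out in this way by chance, if its values are independent; here the 9 libraries are 3 from each of 3 mice, and the 5 measures depend on each other, so that rate does not apply as it stands. The difference lay in 1 library of a mouse whose other 2 libraries gave 9.47% and 10.23%.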

How the results depend on the processing

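No member of the ribosomal protein genes had an adjusted p under 0.05 in any of the 20 alternatives. Outside the members, 6 named genes without an adjusted p under 0.05 in the main comparison had one under some alternative: CDKN1A, ATF3, ZFP36, DUSP1, ZMAT3 and CD247, in 25 results in all, each with its direction kept. Over all genes tested, the 7 calls became 252 with no low-count filter, 119 with DESeq2, 225 with the mouse as a random effect over 18 libraries, 190 when the library letter was added to that fit as a replicate block, and 51 without M_766 and M_768_C together. Leaving out each mouse in turn gave 0 to 59 calls (26 without M_766, 59 without M_770, 1 without M_767 and 0 without M_769, M_768 or M_774). Members with non-overlapping groups numbered 0 to 3 when each mouse was left out (3 without M_766, 0 without M_769, and 1 each without M_770, M_767, M_768 and M_774) and 2 without M_766 and M_768_C together. Groups separate more easily with a mouse left out, and the share over all genes tested was not computed there. The replicate block changed no call among the members. The median log2 fold change ran from -0.19 to 0.09 for the large subunit and from -0.18 to 0.11 for the small subunit when each mouse was left out, and the difference in share of counts from -1.48 to 0.53 percentage points. The cause was not tested. Without M_768_C, the libraries of a mouse differed at least as much as the mice of a group for 3 of 81 members. These were RPS10, RPL36A and RPL7L1. RPL3L and RPL10L had too few counts to be tested.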
